A study of Rattus norvegicus with 6 samples.

Results

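The genes described here are 9 components of interferon signalling, namely the receptor chains IFNAR1, IFNAR2, IFNGR1 and IFNGR2, the kinases JAK1 and TYK2, and the transcription factors STAT2, STAT3 and IRF9. They were selected by symbol, and all 9 were found among the 17648 genes of the neuron dataset. Gene expression was measured by RNA sequencing in 6 libraries of neuron cultures, prepared from the spinal cord of neonatal Sprague-Dawley rats. The Glu + siR-Con group (n = 3) received the transfection control of the small interfering RNA (siRNA) experiment, and the Glu + siR-GAL3 group (n = 3) received siRNA against galectin-3 (GAL3, listed as LGALS3). According to the methods, both groups were cultured for 3 days, exposed to 10 μM glutamate for 1 h and kept for 16 h in glutamate-free medium. The design text also gives glutamate for all 6 libraries. The sample labels instead give saline for the Glu + siR-Con libraries and a knockout for the others, so if the labels were right, glutamate and siRNA could not be told apart. The methods say in general that data came from independent repeated experiments, but neither they nor the labels say that the libraries of a group came from separate cultures. The p-values therefore measure the spread between these libraries, which may be technical. That spread is what remained after the authors corrected the values for differences within groups. The p-values may thus be too small, and the groups may overlap less than before correction, which was not tested.

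Type I interferons bind a receptor made of IFNAR1 and IFNAR2, and type II interferon (interferon gamma) binds one made of IFNGR1 and IFNGR2. The kinases JAK1 and TYK2 (type I) or JAK1 and JAK2 (type II) sit on the inner ends of these chains and phosphorylate STAT proteins. STAT2 and IRF9 are subunits of the factor ISGF3, which acts on the promoters of interferon-stimulated genes, while pairs of STAT proteins without IRF9 act at GAS elements. STAT3 is mainly the factor of cytokines that signal through gp130, and in injured nervous tissue it is known for its role in reactive astrocytes. ISGF3 subunits are themselves interferon-stimulated.

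The deposited values were derived from FPKM and corrected by the authors for batch and for differences within groups, and they are given here as expression units. The sequencing depth is unknown, because the column totals were nearly equal after that correction (64313 to 64714). The targeted gene was lower in each Glu + siR-GAL3 library, with LGALS3 at 77.4, 54.4 and 62.4 units in the siR-Con libraries 1, 2 and 3, against -1.64, 32.3 and 18.5 units in the siR-GAL3 libraries 1, 2 and 3. Exactly equal values linked siR-Con replicate 1 with siR-GAL3 replicate 1 (library set 1) and siR-Con replicates 2 and 3 with siR-GAL3 replicate 3 (library set 2), with 1312 to 1463 shared values against at most 264 between sets. Replicate 2 of siR-GAL3 was alone (library set 3) and stood apart on the first principal component, which held 65.2% of the variance. Results are therefore also given with the set as a block, under which siR-GAL3 replicate 2 has no partner and does not contribute, and without that library. Neuronal markers differed widely in level. RBFOX3 lay between 0.300 and 0.429 units and NEFL between 0.266 and 0.460 units over the libraries, while MAP2 averaged 16.9 and ELAVL3 9.10 units. Of the 15 neuron markers, 14 were found among the genes and 5 had a mean of at least 1 unit. The most abundant markers were glial, GFAP at 515 to 758 units and MBP at 629 to 919 units. In such bulk samples, fewer cells of a type and less RNA per cell cannot be told apart.

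All 9 genes had a mean of at least 1 unit and were tested with limma on log2(value + 1) among 8495 genes. The added 1 makes fold changes of low genes look smaller than they are. IRF9, STAT2, IFNGR1 and IFNGR2 were higher in the Glu + siR-GAL3 group with an unadjusted p under 0.05, against 4.41% of all genes tested that were higher at this threshold. The other 5 genes did not pass, and none was lower at it, against 4.25% of all genes. The same 4 genes were those whose groups did not overlap, against 10.3% of genes tested without overlap and higher in siR-GAL3. The study criteria used here are an absolute log2 fold change above 1 with an unadjusted p under 0.05 in limma. They come from the paper's bioinformatics methods, which describe downloaded datasets. For sequenced samples with replicates, its supplement gives DESeq with an adjusted p under 0.05, a test not run here. On log2(value + 1), no member passed the study criteria, against 0.318% of the genes. IFNGR1 alone of the 9 genes passed these cutoffs on values that were not log-transformed (difference of 1.86 units, unadjusted p = 0.0114 in limma). That fit also had no filter on low values, no intensity trend and no replacement of values below 0. On log2(value + 1), none of the 9 genes had a Benjamini-Hochberg adjusted p under 0.05 in limma, as was true of all 8495 genes (0.0%), of which 736 (8.66%) passed without adjustment. When limma was blocked by library set, 106 genes had an adjusted p under 0.05 (1.25%, and 0.895% counting only genes higher in siR-GAL3), and IRF9 and STAT2 were among them. The sets were formed from the deposited values, and the block leaves few degrees of freedom for the spread. Deviations from the group means of libraries of 1 set but different groups had correlations of -0.17 in set 1, and of 0.01 and 0.04 in set 2. The deviations within a group of 3 depend on each other, and siR-GAL3 replicate 2 stood apart. These correlations therefore cannot decide whether libraries of a set shared deviations. IFNGR1, STAT2 and IRF9 had an unadjusted p under 0.05 in that fit, against 13.8% of genes. Without siR-GAL3 replicate 2, the same 4 genes as in all libraries had an unadjusted p under 0.05, against 16.3% of genes, and none had an adjusted p under 0.05, against 1.97% of genes. The median log2 fold change of the 9 genes was 0.03, and that of all genes tested was -1.19e-05.

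**Figure D1:**
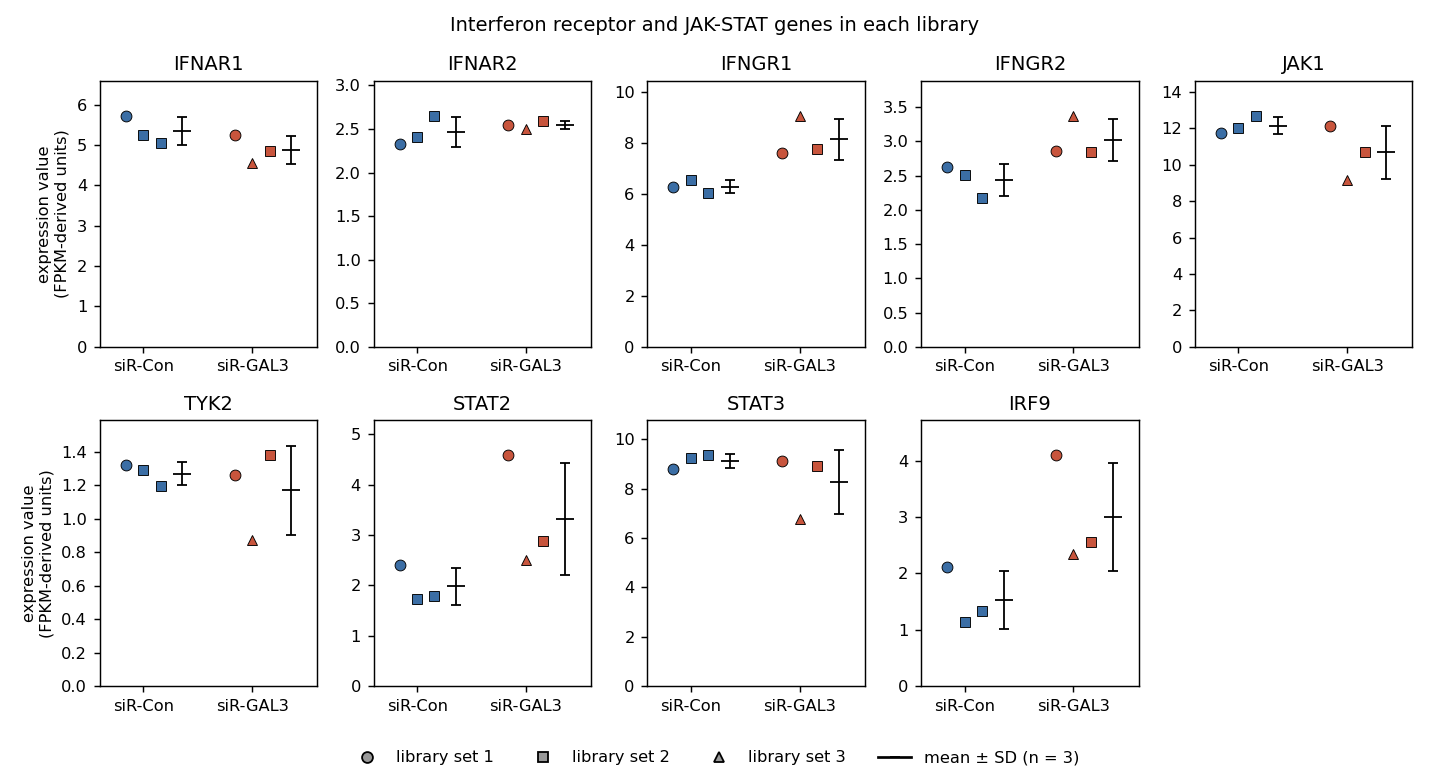
Expression value (FPKM-derived units, each axis from 0) of the 9 genes in each library, in blue for Glu + siR-Con and red for Glu + siR-GAL3, with the marker shape giving the library set and bars the mean ± SD (n = 3). IRF9, STAT2, IFNGR1 and IFNGR2 do not overlap between the groups, and JAK1, STAT3, TYK2 and IFNAR1 have their lowest value in siR-GAL3 replicate 2 (triangle).

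The chains of the interferon gamma receptor were both higher in the Glu + siR-GAL3 group. IFNGR1, the ligand-binding chain, was at 6.30, 6.54 and 6.06 units in the siR-Con libraries 1, 2 and 3, against 7.60, 9.08 and 7.78 units in the siR-GAL3 libraries 1, 2 and 3. The siR-Con libraries lay close together and all siR-GAL3 libraries lay above them, with replicate 2 as the highest. IFNGR1 averaged 6.30 ± 0.239 in siR-Con and 8.15 ± 0.805 units in siR-GAL3 (SD, n = 3 each), and the log2 fold change was 0.32 (SE 0.08, limma unadjusted p of 0.00570, adjusted p of 0.316), the smallest p of the 9 genes. Leaving out single libraries moved IFNGR1 between 0.25 and 0.37 on the log2 scale, with an unadjusted p between 0.00116 and 0.0278 in limma. Without siR-GAL3 replicate 2 the adjusted p was 0.0539 and under the block by library set it was 0.120, at log2 fold changes of 0.25 and 0.26.

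IFNGR2, the chain that brings JAK2 to the receptor, was lower in level than IFNGR1 and had the smaller difference. It was at 2.62, 2.52 and 2.17 units in the siR-Con libraries 1, 2 and 3, against 2.86, 3.38 and 2.84 units in the siR-GAL3 libraries 1, 2 and 3, so that the groups did not overlap and replicate 2 was again the highest. The log2 fold change was 0.23 (SE 0.09, limma unadjusted p of 0.0332, adjusted p of 0.535). This call was lost under the block by library set (log2 fold change 0.15, unadjusted p = 0.0611 in limma) and without siR-Con replicate 2 or 3 (unadjusted p of 0.0650 and 0.126 in limma). Within set 1 the difference of IFNGR2 on log2(value + 1) was 0.09 and within set 2 it was 0.20.

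The chains of the type I receptor showed no such difference. IFNAR1, the chain that holds TYK2, was at 5.73, 5.24 and 5.05 units in the siR-Con libraries 1, 2 and 3, against 5.25, 4.57 and 4.85 units in the siR-GAL3 libraries 1, 2 and 3. The groups overlapped, and the log2 fold change was -0.11 with a 95% interval from -0.29 to 0.08 (unadjusted p = 0.209, adjusted p = 0.621 in limma). IFNAR2, the main ligand-binding chain and the one that holds JAK1, was at 2.33, 2.41 and 2.65 units in the siR-Con libraries 1, 2 and 3, against 2.55, 2.50 and 2.59 units in the siR-GAL3 libraries 1, 2 and 3. The groups overlapped here too, and the log2 fold change of IFNAR2 was 0.03, with a 95% interval from -0.12 to 0.19 (unadjusted p = 0.607, adjusted p = 0.804 in limma). In GRCr8 the promoter windows of IFNAR2, IFNAR1 and IFNGR2 lie within 166.2 kb of each other on chromosome 11. Of these neighbours, IFNGR2 had an unadjusted p under 0.05, and IFNAR1 and IFNAR2 did not.

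The difference between the receptors was compared directly within libraries, a comparison added after the values were seen. The ratio of IFNGR1 to IFNAR1 was 1.10, 1.25 and 1.20 in the siR-Con libraries 1, 2 and 3, against 1.45, 1.99 and 1.61 in the siR-GAL3 libraries 1, 2 and 3, without overlap. It was higher in siR-GAL3 by 0.50 on the log2 scale, by 0.40 within set 1 and by 0.39 within set 2 (exact permutation test, two-sided p = 0.1, adjusted over 7 ratios p = 0.233). The ratio of IFNGR2 to IFNAR2 overlapped between the groups (log2 difference 0.26, exact permutation p = 0.3, adjusted p = 0.420).

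**Figure D2:**
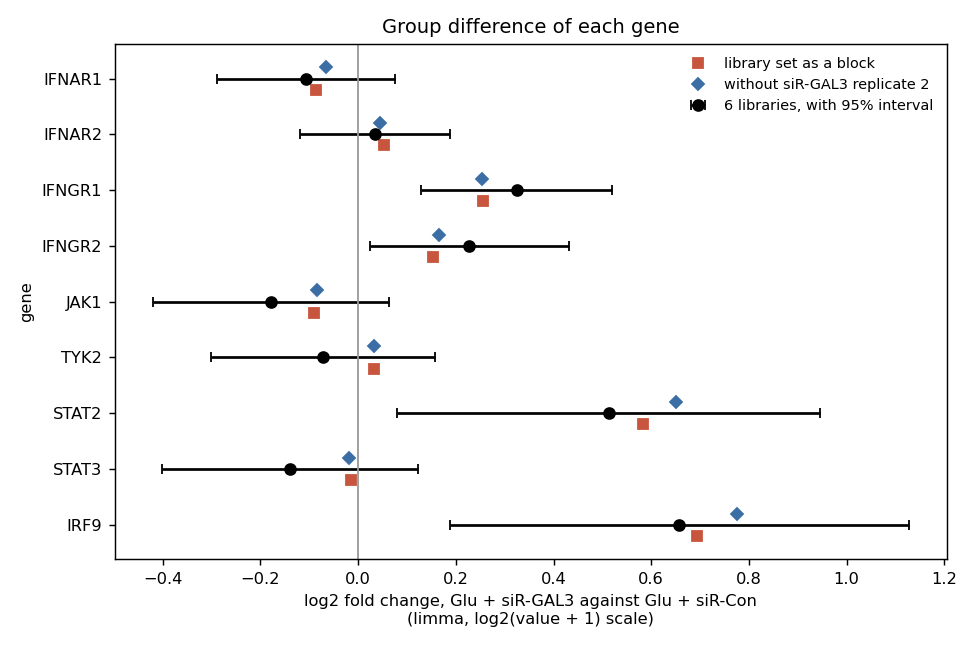
Log2 fold change of each gene (siR-GAL3 over siR-Con, from limma), with its 95% interval over the 6 libraries (black), beside the value under the block by library set (red squares) and without siR-GAL3 replicate 2 (blue diamonds). The intervals of IFNGR1, IFNGR2, STAT2 and IRF9 lie above 0, and STAT3 moves from -0.14 to -0.02 without that library.

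The kinases and STAT3 did not pass the test, and siR-GAL3 replicate 2 was the lowest library in each. JAK1, the kinase shared by both interferon receptors and gp130, was at 11.76, 12.02 and 12.70 units in the siR-Con libraries 1, 2 and 3, against 12.1, 9.19 and 10.7 units in the siR-GAL3 libraries 1, 2 and 3. The log2 fold change of JAK1 was -0.18 with a 95% interval from -0.42 to 0.06 (unadjusted p = 0.123, adjusted p = 0.590 in limma), and -0.08 without siR-GAL3 replicate 2. Without siR-GAL3 replicate 1 it was -0.27, with an unadjusted p of 0.0280 in limma.

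STAT3 was at 8.81, 9.23 and 9.36 units in the siR-Con libraries 1, 2 and 3, against 9.10, 6.77 and 8.90 units in the siR-GAL3 libraries 1, 2 and 3. The remaining 5 libraries lay between 8.81 and 9.36 units, and siR-GAL3 replicate 2 was below them. The log2 fold change of STAT3 was -0.14 with a 95% interval from -0.40 to 0.12 (unadjusted p = 0.247, adjusted p = 0.628 in limma), and -0.02 without that library. TYK2, a kinase of the type I but not of the type II interferon receptor, was the least abundant of the 9 genes. It was at 1.32, 1.29 and 1.19 units in the siR-Con libraries 1, 2 and 3, against 1.26, 0.872 and 1.38 units in the siR-GAL3 libraries 1, 2 and 3. Its log2 fold change was -0.07 with a 95% interval from -0.30 to 0.16 (unadjusted p = 0.484, adjusted p = 0.736 in limma), and it turned to 0.03 without siR-GAL3 replicate 2 and under the block by library set. Replicate 2 of siR-GAL3 was the lowest library in 4 of the 9 genes, IFNAR1, JAK1, TYK2 and STAT3, and in 35.1% of all genes tested. It was the highest library in IFNGR1 and IFNGR2, and in 41.5% of all genes tested, while siR-GAL3 replicate 1 was the highest in STAT2 and IRF9, and in 9.99% of all genes tested.

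Among the factors of ISGF3, IRF9 showed the largest difference of the 9 genes. IRF9, the DNA-binding subunit that carries the STAT pair to the promoter, was at 2.11, 1.14 and 1.33 units in the siR-Con libraries 1, 2 and 3, against 4.10, 2.34 and 2.56 units in the siR-GAL3 libraries 1, 2 and 3. Each siR-GAL3 library lay above each siR-Con library, and replicate 1 was the highest in both groups. Mean levels of IRF9 were 1.52 ± 0.514 in siR-Con and 3.00 ± 0.960 units in siR-GAL3 (SD, n = 3 each), a ratio of 1.97, and limma gave IRF9 a log2 fold change of 0.66 (SE 0.20) at an unadjusted p of 0.0130 and an adjusted p of 0.419. Blocking by library set gave IRF9 0.69 (SE 0.06) at an adjusted p of 0.0114 in limma. Within set 1 the difference on log2(value + 1) was 0.72 and within set 2 it was 0.68. Without siR-GAL3 replicate 2 it was 0.78 (adjusted p = 0.0897 in limma). The exact permutation test gave a two-sided p of 0.1 for IRF9, STAT2, IFNGR1 and IFNGR2 alike, which is the smallest that 3 against 3 allow.

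STAT2, the subunit with the strong transactivation domain, followed the same course. It was at 2.41, 1.73 and 1.79 units in the siR-Con libraries 1, 2 and 3, against 4.59, 2.50 and 2.87 units in the siR-GAL3 libraries 1, 2 and 3. The groups did not overlap, but siR-GAL3 replicate 2 exceeded siR-Con replicate 1 by little. STAT2 averaged 1.98 ± 0.373 in siR-Con and 3.32 ± 1.11 units in siR-GAL3 (SD, n = 3 each), with a log2 fold change of 0.51 (SE 0.18, limma unadjusted p of 0.0265, adjusted p of 0.519). The block by library set gave 0.58 (SE 0.07, adjusted p of 0.0196 in limma), with 0.71 within set 1 and 0.49 within set 2. The difference of STAT2 rested in part on siR-GAL3 replicate 1, without which it was 0.31 (unadjusted p = 0.0403 in limma). Without siR-Con replicate 2 or 3, STAT2 had an unadjusted p of 0.0833 and 0.0793 in limma.

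The 6 libraries stood in exactly the same order in STAT2 as in IRF9, which was noticed after the values were seen. Among the other genes tested, 16 (0.188%) had this order, STAT2 among them. Only the 871 tested genes without overlap and higher in siR-GAL3, which include IRF9 and STAT2, could have it. The share over all genes therefore makes the order look rarer than it was among such genes. The summed level of 17 interferon-stimulated genes had it too, with 86.6, 54.2 and 55.5 units in the siR-Con libraries 1, 2 and 3, against 180.7, 132.6 and 149.5 units in the siR-GAL3 libraries 1, 2 and 3. Of the 17 genes singly, 3 had this order, among them B2M, which made up much of the sum (28.0 to 78.9 units over the libraries). LGALS3 could not have it, because it was lower in each siR-GAL3 library. Within the siR-Con group its libraries stood in the order of STAT2 and IRF9, and within the siR-GAL3 group in the reverse order. The interferon-stimulated list held 44 genes, of which 17 could be tested, with a median log2 fold change of 0.76. Of the 17, 14 were higher with an unadjusted p under 0.05, against 4.41% of all genes tested. None was lower at that threshold, against 4.25% of all genes tested. A further 26 listed genes had means under 1 unit and were not tested, and LGALS9, BST2 and OAS1B passed that filter only through the siR-GAL3 group, so this count and median describe the genes that passed and not the list. Among the 14 genes with a siR-Con mean of at least 1 unit, a subset chosen after the values were seen, 11 were higher at that threshold and the median was 0.61. The members of the list with the smallest p were B2M, the light chain of MHC class I, IFI27, a mitochondrial protein induced by interferon, and the guanylate-binding protein GBP2, with log2 fold changes of 1.14, 2.08 and 0.76. Under the block by library set 12 of the 17 had an adjusted p under 0.05 in limma, against 1.25% of genes, and 8 had one without siR-GAL3 replicate 2, against 1.97%. LGALS9 and OAS1B were among the 12 and LGALS9 among the 8, so these counts too describe only the genes that passed the filter.

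The promoter windows of RefSeq (assembly GRCr8) were searched for a GAS element, TTCNNNGAA, and for the repeat GAAANNGAA of the type that ISGF3 recognizes, on both strands and from 250 bases before to 50 bases after the start of the gene. Windows were available for 7 of the 9 genes, JAK1 and TYK2 being not analysed here. GAS was present in 2 of the 7, against 8.68% of 27457 windows, and the repeat in none of the 7, against 9.50% of windows. The 250 bases upstream of IRF9, of IFNAR2 and of STAT2 are shown because IRF9 and STAT2 had the largest differences and IRF9 and IFNAR2 hold the 2 GAS matches. Capitals mark the GAS letters, which begin at position -99 from the start in IRF9 and at the second base of the window in IFNAR2. A match in IFNAR2, a gene with little difference between the groups, and no match in STAT2 are a description of these letters only.
IRF9, plus strand, chr15:33065586-33065835: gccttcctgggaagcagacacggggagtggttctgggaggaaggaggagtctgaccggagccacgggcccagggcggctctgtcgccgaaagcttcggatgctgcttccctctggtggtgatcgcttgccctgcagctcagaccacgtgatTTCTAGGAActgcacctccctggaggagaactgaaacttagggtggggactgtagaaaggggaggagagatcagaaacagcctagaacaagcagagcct
IFNAR2, plus strand, chr11:44099520-44099769: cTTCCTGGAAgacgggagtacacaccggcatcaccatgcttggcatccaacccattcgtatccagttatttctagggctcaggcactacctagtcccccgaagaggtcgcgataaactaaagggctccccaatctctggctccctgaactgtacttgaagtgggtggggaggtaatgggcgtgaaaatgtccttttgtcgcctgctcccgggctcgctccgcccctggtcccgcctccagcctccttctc
STAT2, plus strand, chr7:1286840-1287089: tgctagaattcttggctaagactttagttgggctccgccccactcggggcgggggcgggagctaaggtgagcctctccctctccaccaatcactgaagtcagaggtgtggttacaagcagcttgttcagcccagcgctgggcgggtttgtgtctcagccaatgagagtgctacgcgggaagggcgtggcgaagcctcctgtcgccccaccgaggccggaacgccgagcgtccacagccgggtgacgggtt

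The levels of the 9 genes, which are per transcript length, spanned 9.36-fold. From the highest mean down, the order was JAK1 at 11.4 units, STAT3 at 8.69, IFNGR1 at 7.23, IFNAR1 at 5.11, IFNGR2 at 2.73, STAT2 at 2.65, IFNAR2 at 2.51, IRF9 at 2.26 and TYK2 at 1.22 units. The order below IFNAR1 differed between the groups. In siR-Con, IFNAR2 (2.46) and IFNGR2 (2.44) lay above STAT2 (1.98) and IRF9 (1.52), and in siR-GAL3, STAT2 (3.32), IFNGR2 (3.02) and IRF9 (3.00) lay above IFNAR2 (2.55). JAK1 lay above 89.0% and TYK2 above 8.26% of the genes tested. Of the 8 neighbouring pairs, JAK1 over STAT3, IFNGR1 over IFNAR1 and IFNAR1 over IFNGR2 held in 6 of 6 libraries, where the exact paired permutation test gave its smallest two-sided p, 0.03125 (adjusted over the 8 pairs, 0.0833). IRF9 exceeded TYK2 in 5 of 6 libraries (exact permutation p = 0.0938, adjusted 0.188). In the other 4 pairs the mean difference was smaller than its SD, and STAT2 exceeded IFNAR2 in 3 of 6 libraries (exact permutation p = 0.938). The signalling chains of each receptor were thus unequal in level, with IFNGR1 at 2.40 to 2.79 times IFNGR2 and IFNAR1 at 1.83 to 2.46 times IFNAR2 over the libraries.

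Ratios between partners cancel the scaling of a library. The ratio of STAT2 to STAT3 was 0.273, 0.188 and 0.192 in the siR-Con libraries 1, 2 and 3, against 0.504, 0.369 and 0.323 in the siR-GAL3 libraries 1, 2 and 3, without overlap. Its difference was 0.87 on the log2 scale (exact permutation p = 0.1, adjusted over 5 ratios p = 0.250), with 0.88 within set 1 and 0.77 within set 2. The ratio of IRF9 to STAT2 did not overlap either, at 0.875, 0.656 and 0.742 in the siR-Con libraries 1, 2 and 3, against 0.894, 0.938 and 0.893 in the siR-GAL3 libraries 1, 2 and 3, but within set 1 its log2 difference was only 0.03. The ratios of IFNAR1 to IFNAR2 (log2 difference -0.18), IFNGR1 to IFNGR2 (0.06) and JAK1 to TYK2 (-0.05) overlapped between the groups, with exact permutation p of 0.2, 0.5 and 0.8.

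**Figure D3:**
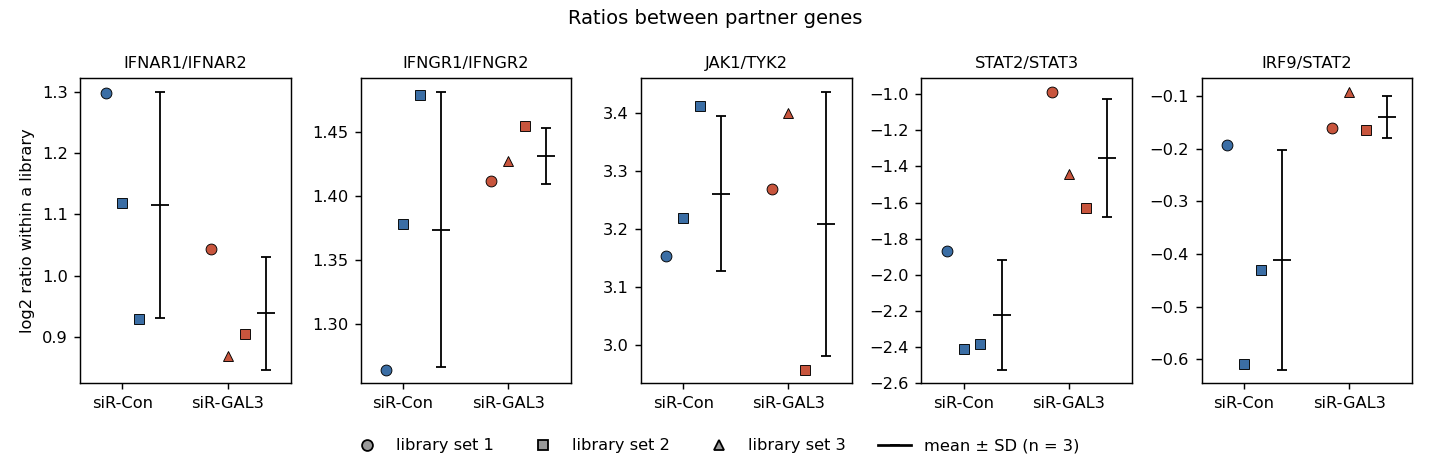
Log2 of the ratio between partner genes in each library (vertical axes do not start at 0), in blue for Glu + siR-Con and red for Glu + siR-GAL3, with the marker shape giving the library set and bars the mean ± SD (n = 3). STAT2/STAT3 and IRF9/STAT2 lie higher in each siR-GAL3 library, and the other 3 ratios overlap.

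Of the other JAKs and STATs examined, 4 were tested, and their log2 fold changes lay between -0.15 and -0.02. None passed an unadjusted p under 0.05, which 8.66% of all genes tested passed in either direction. JAK2, the partner of IFNGR2, was at 2.28, 2.16 and 2.33 units in the siR-Con libraries 1, 2 and 3, against 2.25, 2.16 and 2.22 units in the siR-GAL3 libraries 1, 2 and 3 (log2 fold change -0.02, unadjusted p = 0.726, adjusted p = 0.868 in limma). Of 12 interferon ligands and lambda receptor chains, 6 were listed and 1, the shared chain IL10RB, had a mean of at least 1 unit. The highest value of the other 5 rows, IFNA4, IFNA5, IFNK, IFNE and IFNLR1, was 0.111 units. IFNB1 and IFNG were not analysed here. Of the 8 interferon regulatory factors other than IRF9, 4 were tested and only IRF5, a factor of myeloid cells, passed, with a log2 fold change of 0.26 (unadjusted p = 0.00647, adjusted p = 0.333 in limma).

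Of 20 negative regulators, 16 were tested, 6 were higher and 10 lower, with a median log2 fold change of -0.05. With an unadjusted p under 0.05, 2 passed, against 8.66% of all genes tested in either direction. The 2 that passed were the phosphatases PTPRC (CD45) and PTPN6 (SHP-1), both known from blood and microglial cells and PTPRC also on the list of microglia markers, with log2 fold changes of 0.43 and 0.41 (unadjusted p of 0.000665 and 0.00125, adjusted p of 0.149 and 0.174 in limma). SOCS3, the feedback inhibitor induced by STAT3, was at 3.48, 3.25 and 3.15 units in the siR-Con libraries 1, 2 and 3, against 3.28, 2.43 and 3.80 units in the siR-GAL3 libraries 1, 2 and 3, and overlapped between the groups. Its log2 fold change was -0.06 and turned to 0.08 without siR-GAL3 replicate 2. None of 7 gp130 receptors and ligands tested passed, and their median log2 fold change was -0.11. Of 16 STAT3 target genes tested, CEBPD and BIRC5 were higher (log2 fold changes of 0.60 and 0.47) and GFAP, also an astrocyte marker, was lower (-0.31) with an unadjusted p under 0.05 in limma, and the median was 0.02. At this threshold 4.41% of all genes tested were higher and 4.25% lower. Leaving out siR-Con replicate 2 took CEBPD, BIRC5 and GFAP past 0.05 (unadjusted p of 0.0542, 0.0818 and 0.0533 in limma). Leaving out siR-Con replicate 3 did so for CEBPD (0.0632) and BIRC5 (0.0541), and leaving out siR-GAL3 replicate 1 or 3 for GFAP (0.0553 and 0.0618). BIRC5 fell to 0.29 without siR-GAL3 replicate 2 and to 0.28 under the block by library set, and GFAP was at -0.20 without siR-Con replicate 1. CEBPD was at 0.41 under that block, with a difference of 0.0014 within set 1 and 0.72 within set 2. No gene of the pathway lists had an adjusted p under 0.05 over the 6 libraries. Besides the interferon-stimulated genes, PTPRC had one of 0.0237 under the block by library set and of 0.0182 without siR-GAL3 replicate 2, and PTPN6 had 0.0504 and 0.0228 in these fits of limma.

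**Figure D4:**
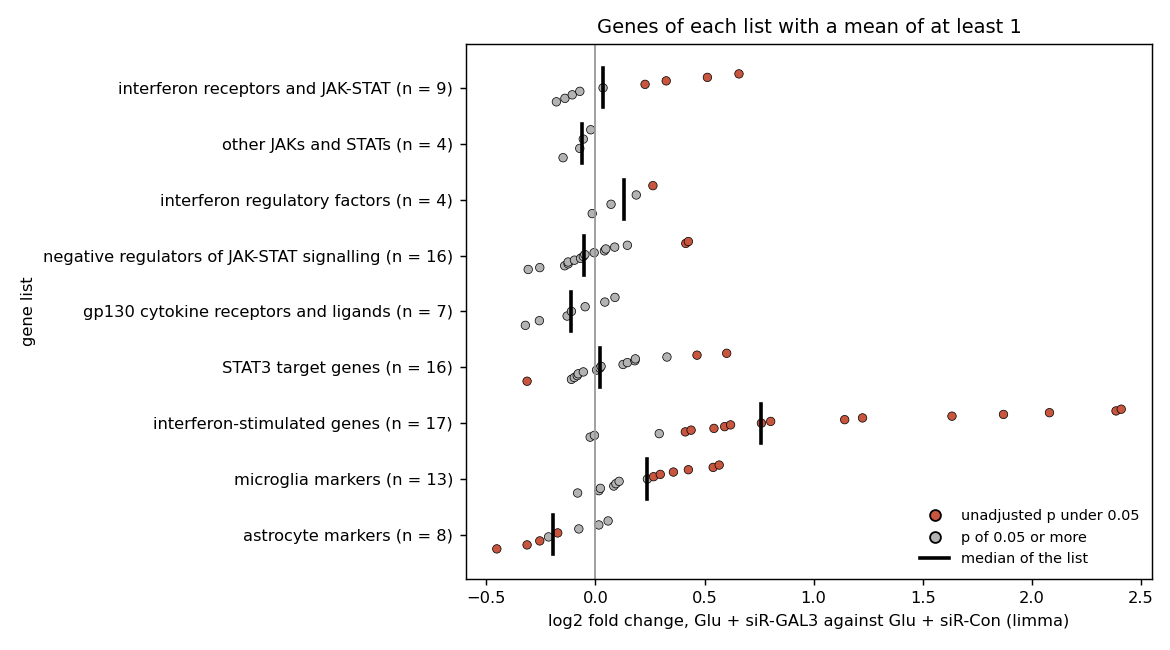
Log2 fold change in limma of each gene with a mean of at least 1 unit, by list, with points in red where the unadjusted p was under 0.05 and the vertical bar at the median of the list. The interferon-stimulated genes have a median of 0.76, and 14 of the 17 tested have an unadjusted p under 0.05, against 8.66% of all genes tested. Of these 17, LGALS9, BST2 and OAS1B passed the filter only through the siR-GAL3 group, so this median and the count of 14 describe the genes that passed.

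Markers of other cell types moved with the groups. Of 14 microglia markers, 13 were tested and 6 were higher with an unadjusted p under 0.05, with a median log2 fold change of 0.24, and the most abundant were C1QC and C1QB. Over all genes tested, 4.41% were higher and 4.25% lower at this threshold, which applies to the other markers below too. The summed microglial level did not overlap between the groups. In the siR-Con libraries 1, 2 and 3 it was 124.4, 144.3 and 148.4 units, lowest where STAT2 and IRF9 were highest. In the siR-GAL3 libraries 1, 2 and 3 it was 177.9, 156.5 and 158.2 units, in the same order as STAT2 and IRF9. Of 8 astrocyte markers, 4 were lower with an unadjusted p under 0.05, and the summed level was 927.6 to 1069 units in siR-Con and 801.5 to 865.7 units in siR-GAL3, mostly GFAP and AQP4. The 5 neuron markers tested, led by MAP2 and ELAVL3, overlapped in their summed level (31.42 to 35.95 and 28.92 to 36.10 units), and 1 was higher with an unadjusted p under 0.05. None of the 7 oligodendrocyte markers tested passed, 3 of 5 fibroblast markers were lower with an unadjusted p under 0.05, among them COL1A1 but not DCN, and no endothelial marker had a mean of at least 1 unit. The part of these markers in the differences of IFNGR1, IFNGR2, STAT2 and IRF9 was not tested.

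By likeness over the 6 libraries, the genes closest to IFNGR1, the member with the smallest p, were NSA2, YWHAH, TIMM44, AIDA and LOC100364435, with Pearson's r of 0.994, 0.986, 0.986, 0.985 and 0.980 on log2(value + 1) among 2600 genes with a mean of at least 5 units. The points share the 2 groups, the library sets and the authors' correction. YWHAH, a 14-3-3 protein, was at 14.0, 14.0 and 13.9 units in the siR-Con libraries 1, 2 and 3, against 16.1, 17.5 and 16.2 units in the siR-GAL3 libraries 1, 2 and 3. Replicate 2 was the highest of the siR-GAL3 libraries in all 5 genes, as in IFNGR1. The genes were picked by this likeness over the same libraries, so that is no separate result.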

How the data were processed

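Reads were processed by the sequencing company with STAR, HTSeq 0.5.4 p3 and FPKM estimation. Before depositing the matrix, the authors corrected it for batch, standardized it and adjusted it within groups, by tools not given in the sources used here, as is the genome build. The deposited numbers are therefore linear FPKM-derived expression values and no longer FPKM, the unit first assumed. They fall below 0 in 2376 rows, and in none of the 9 genes. Supplement and labels differ on RNA selection (poly(A) capture or ribosomal depletion).

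Negative values were replaced by 0. limma 3.58.1 (R 4.3.3, eBayes with intensity trend) was fitted to log2(value + 1) of the 8495 genes whose mean reached 1 unit, adjusting by Benjamini-Hochberg over all of them, and was tested on simulated data. Exact two-sided permutation tests used SciPy 1.17.1. Libraries sharing over 1000 identical non-zero values formed a set. Of the matrix rows, 16309 matched a RefSeq symbol (GRCr8).

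The 9 genes, the lists and the tests were chosen with earlier results of these data known. Besides the 9 genes, LGALS3, JAK2 and SOCS3, the text names up to 3 genes per pathway list with the smallest p under 0.05, the 2 most abundant per marker list, and the 5 genes most like IFNGR1. IL10RB, the untested ligands, LGALS9, BST2, OAS1B, NEFL and RBFOX3 were named after their values were seen. Alternatives changed the pseudocount (0.1), the filter (none, or a mean of 10), the scaling (quantile, median ratio), the trend, the block (replicate number or library set), the handling of negative values and of the log, or left out 1 library. The fit without the log also had no filter and no trend and kept values below 0. Some genes are not reported here.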

Additional observations from a re-analysis of the deposited data

How the results depend on the processing

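Depth is unknown, and 3 libraries per group limit the precision. The replicate numbers were not taken as pairs. Deviations of same-numbered libraries of the 2 groups had correlations of -0.17, -0.07 and 0.04. As siR-GAL3 replicate 2 stood apart within its group, these values cannot decide on pairing. With the replicate block, 6 genes had an adjusted p under 0.05 in limma against 0 without it, and IFNGR2 had an unadjusted p of 0.0515, leaving 3 members under 0.05. The block by library set gave 106 genes by adjusted p and 1174 against 736 by unadjusted p. The unadjusted count was 1623 with no filter, 121 with a mean of at least 10, which kept only JAK1 of the 9 genes, and 1528 on values that were not log-transformed, where 2 members against 4 passed. The study criteria gave 27 genes, 5 with a mean of at least 10, 15 without genes holding values below 0, and 316 without the log. Without the log, the fold cutoff applies to a difference in units, and IFNGR1 was the only member to pass. The fit without the log also had no filter, no intensity trend and no replacement of values below 0. Its counts of 1528 and 316 therefore cannot be credited to the log alone. The count of 316 in this fit equals the number of differential genes in the paper. Whether the genes were the same was not tested. Leaving out 1 library at a time gave 25 to 29 genes by the study criteria, 0 to 167 by adjusted p (167 without siR-GAL3 replicate 2), 362 (without siR-Con replicate 3) to 1381 (without siR-GAL3 replicate 2) by unadjusted p, 2194 to 3235 genes without overlap against 1742, and 2 to 5 members with an unadjusted p under 0.05, the fifth being JAK1, lower without siR-GAL3 replicate 1. Signs reversed in none of IFNAR1, IFNAR2, IFNGR1, IFNGR2, JAK1, STAT2, STAT3 and IRF9 under these alternatives. TYK2 turned to 0.0321, SOCS3 to 0.0823 and MAP2 to 0.0527 (log2 fold change) under the block by library set, and they ranged from -0.142 to 0.0315, -0.164 to 0.0795 and -0.193 to 0.0547 with 1 library left out, the highest without siR-GAL3 replicate 2. ELAVL3 ranged from -0.0755 (without siR-GAL3 replicate 3) to 0.149. The cause of these changes was not tested.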
